A study of Homo sapiens with 12 samples.

Results

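The mitosis genes described here are 60 genes for entry into mitosis, the spindle, the kinetochore, chromosome separation and cytokinesis. They were taken by gene symbol from a table of 22170 genes, and all 60 were found in it. The table holds messenger RNA levels of SKBR3 cells, an established HER2-positive breast cancer line labelled wild type, under 4 treatments with 3 libraries each. Every plate received vehicle (DMSO) or 5 µM GSK126 from day -6, was split on day -3 and seeded at 350000 cells per 6 cm plate on day -1. On day 0 the DMSO plates received DMSO again (the DMSO group) or 100 nM lapatinib (the lapatinib group). The GSK126 plates stayed in 5 µM GSK126 alone (the GSK126 group) or received 100 nM lapatinib on top of it (the combination group), and RNA was taken 24 h later in all 4 groups. The target of lapatinib is the kinase activity of HER2 and of its relative EGFR, and GSK126 inhibits EZH2, the methyltransferase of the repressive complex PRC2.

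Most of these genes are transcribed in a wave late in the cell cycle, in the G2 phase and mitosis, and are nearly silent in resting cells. A repressor complex called DREAM and the activators B-MYB (MYBL2) and FOXM1 act on their promoters through a short element known as the cell cycle genes homology region. CCAAT boxes are a second motif common in such promoters. In bulk RNA of a growing culture their level therefore follows how many cells are dividing as well as how strongly each cell transcribes them, and fewer cells in division cannot be told apart from less RNA per cell here.

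The libraries held 17693103 to 30349466 reads on genes. The lowest depth was that of combination library 1, which also had reads on 21669 genes against 15059 to 17338 in the other libraries. By the relative levels of their spike-in transcripts the libraries fell into 3 compositions. The DMSO and lapatinib libraries and combination libraries 2 and 3 shared the most common composition, GSK126 libraries 2 and 3 and combination library 1 shared another, and GSK126 library 1 had its own. GSK126 against DMSO is thus the comparison in which spike-in composition and treatment cannot be told apart. Markers of HER2-amplified luminal cells (ERBB2, GRB7, EPCAM, KRT8, KRT18 and KRT19) were high in every library. The endothelial marker PECAM1 reached at most 4.98 normalized reads, and the leukocyte markers PTPRC and CD3E at most 19.9 and 6.22, both in the combination group. Other markers were not near 0. The endothelial gene CDH5 was at 111 to 182 in DMSO, 56.4 to 81.3 with lapatinib, 867 to 1529 with GSK126 and 739 to 1002 with both drugs, and VWF was at 83.0 to 107, 125 to 157, 26.5 to 63.5 and 21.8 to 63.5. The macrophage gene CD68 was at 139.7 to 182, 214 to 308, 252 to 429 and 624 to 715 in the same order. The 4 fibroblast markers summed to 243 to 380.4, 196 to 235, 130.3 to 239.5 and 67.5 to 134, mostly COL1A1. The part of these genes in the results below was not tested. The labels do not state if replicates are independent cultures, so each p-value reflects no more than library-to-library spread, which may be technical.

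Promoter windows, from 250 bases before to 50 after the gene start, came from a set based on RefSeq (GRCh38.p14). That set held 51 of the 60 members (SGOL1 under its current symbol SGO1). FOXM1, AURKA, BUB3, TTK, CENPM, BIRC5, UBE2C, TPX2 and RACGAP1 had no entry in the set. Both strands were searched for the CCAAT box (CCAAT, which reads ATTGG on the other strand). The homology region was searched as TTTGAA, which reads TTCAAA on the other strand, and as its variant TTCGAA, which is the same on both. The 6 windows below, cut at 30 bases after the start, show what the members share and where they differ, with the matches in capitals. CCNB2 and PLK1 have the arrangement seen most often, CCAAT boxes followed by a homology region close to the start. CDC20 and SPC25 hold the homology region more than once, CCNB1 holds only CCAAT boxes, and KIF2C holds neither motif.
CCNB2 (chr15:59104896-59105175, plus strand): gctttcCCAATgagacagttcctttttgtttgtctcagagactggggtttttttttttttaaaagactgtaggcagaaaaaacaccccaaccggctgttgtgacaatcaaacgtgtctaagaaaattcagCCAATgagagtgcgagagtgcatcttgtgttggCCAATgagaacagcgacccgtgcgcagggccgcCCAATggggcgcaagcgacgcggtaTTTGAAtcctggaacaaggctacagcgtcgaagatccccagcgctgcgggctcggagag
PLK1 (chr16:23678639-23678918, plus strand): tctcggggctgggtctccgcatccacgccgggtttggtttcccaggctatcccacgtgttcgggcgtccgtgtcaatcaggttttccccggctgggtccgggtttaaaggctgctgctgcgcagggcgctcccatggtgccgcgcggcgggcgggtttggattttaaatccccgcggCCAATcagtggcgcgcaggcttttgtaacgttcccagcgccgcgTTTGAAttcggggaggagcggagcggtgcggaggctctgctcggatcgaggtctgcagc
CDC20 (chr1:43358731-43359010, plus strand): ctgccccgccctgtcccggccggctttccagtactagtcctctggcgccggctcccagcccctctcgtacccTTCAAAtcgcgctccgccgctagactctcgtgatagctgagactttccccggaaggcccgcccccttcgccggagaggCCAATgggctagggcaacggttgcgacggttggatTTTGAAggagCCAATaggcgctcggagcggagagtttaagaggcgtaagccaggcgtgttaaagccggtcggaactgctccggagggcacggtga
SPC25 (chr2:168890401-168890680, minus strand): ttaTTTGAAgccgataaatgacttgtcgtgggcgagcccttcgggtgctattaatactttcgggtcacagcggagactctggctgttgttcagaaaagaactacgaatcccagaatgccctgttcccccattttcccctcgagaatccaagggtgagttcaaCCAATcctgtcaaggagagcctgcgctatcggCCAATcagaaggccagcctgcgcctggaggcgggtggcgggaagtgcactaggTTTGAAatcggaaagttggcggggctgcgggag
CCNB1 (chr5:69166900-69167179, plus strand): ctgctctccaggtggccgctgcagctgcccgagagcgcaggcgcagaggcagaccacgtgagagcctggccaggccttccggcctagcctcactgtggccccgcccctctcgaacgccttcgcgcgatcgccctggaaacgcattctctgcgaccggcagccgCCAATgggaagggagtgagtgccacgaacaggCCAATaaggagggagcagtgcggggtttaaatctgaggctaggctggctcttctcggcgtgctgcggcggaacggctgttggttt
KIF2C (chr1:44739587-44739866, plus strand): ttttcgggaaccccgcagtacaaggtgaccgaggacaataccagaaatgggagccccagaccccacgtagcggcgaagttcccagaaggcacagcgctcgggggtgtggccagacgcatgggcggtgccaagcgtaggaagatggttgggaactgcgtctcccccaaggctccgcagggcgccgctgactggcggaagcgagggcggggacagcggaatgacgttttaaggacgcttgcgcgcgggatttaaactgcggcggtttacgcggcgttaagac

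The homology region letters stood in 70.6% of the 51 member windows, against 16.6% of all 27305 windows of the same length in the set. They stood in 13.5% of the 15843 protein-coding windows and 8.57% of the windows of 35 DNA replication genes. Within 50 bases of the start the shares were 56.9% of the members, 5.05% of all windows and 2.86% of the replication genes. At least 1 CCAAT box was present in 72.5% of the members, 35.7% of all windows and 54.3% of the replication genes. Both motifs occurred together in 54.9% of the members and 6.58% of all windows, and they overlapped in 2 of the 51 member windows. In 5 members, CCNB1, CCNB2 and SPC25 among them, CCAAT boxes lay 31 to 34 bases apart, a spacing found in 9.8% of the members and 1.36% of all windows. A match is only a match of letters in a window and no evidence that a factor binds there.

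Lapatinib lowered all 60 mitosis genes. Each member was called lower against DMSO (limma on log2(value + 1), adjusted p under 0.05 over the 14179 genes tested), against 14.3% of all tested genes called lower and 13.7% called higher. For all 60 every lapatinib library lay below every DMSO library, which held for 27.2% of tested genes, with 28.2% lying wholly above. The median change was -2.27 on the log2 scale, while the median of all tested genes was 0.04. With libraries scaled to their spike-in total these medians were -2.81 and -0.49. The percentages that follow are on the deposited scaling. After 24 h the lapatinib mean stood at a median of 20.6% of the DMSO mean, from 7.67% for SPC25 to 65.4% for CDC25B. It was under 25% for 46 members and under 50% for 59. Reads on the 60 members made up 0.615%, 0.666% and 0.685% of the gene reads in the DMSO libraries and 0.157%, 0.156% and 0.159% in the lapatinib libraries.

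**Figure D1:**
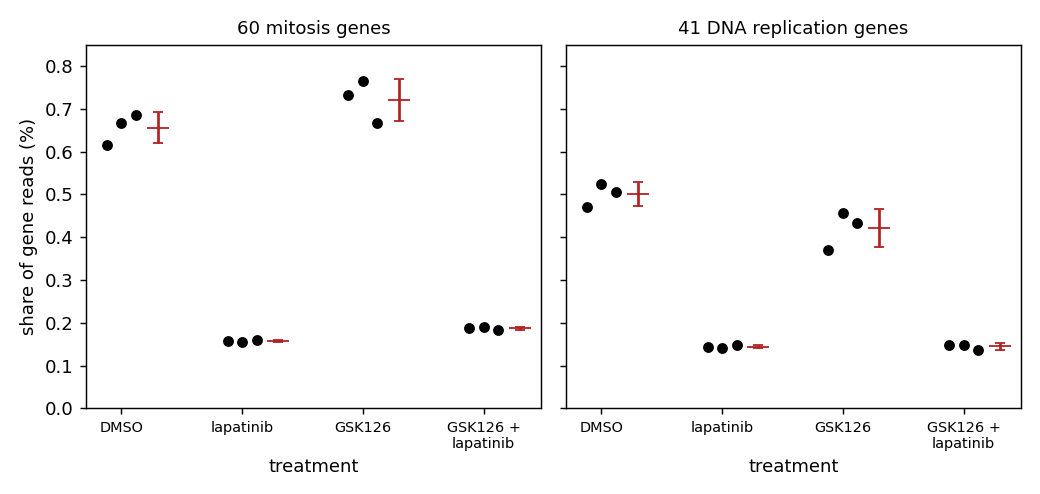
Share of each library's gene reads (percent, vertical axis) that fell on the 60 mitosis genes (left) and on 41 DNA replication genes (right), by treatment, with a point per library and the mean ± SD of 3 libraries in red. For the mitosis genes the lapatinib and combination libraries sit between 0.156% and 0.190%, and the DMSO and GSK126 libraries between 0.615% and 0.764%.

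The genes of mitotic entry, 10 in all, had a median log2 change of -2.10 with lapatinib. CDK1, the kinase that drives entry into mitosis, was at 4153, 5047 and 5169.9 normalized reads in the DMSO libraries and at 596, 503 and 549.9 with lapatinib, a log2 change of -3.12 ± 0.22 (SE; limma adjusted p = 1.04e-06). The lapatinib libraries lay close together, far below the lowest DMSO library. CCNB1, the B-type cyclin that activates CDK1, went from 3090.1, 3527 and 3478 to 679.6, 796 and 829, a smaller change of -2.13 ± 0.14 (adjusted p = 6.62e-07 by limma). CCNB2, its close relative, had 1578, 1641 and 1838 in DMSO and 432, 430.0 and 415 with lapatinib, which is -1.98 ± 0.13. The kinase subunit thus lost more of its messenger than either B-type cyclin did, although that difference between genes was not itself tested. CDCA3, an adaptor for the destruction of the mitosis inhibitor WEE1, fell from 1037, 1040.5 and 941 to 111, 123 and 102, the largest change of the entry genes at -3.16 ± 0.17. FOXM1, a transcription factor for many of the other members, fell from 4827, 4343 and 4062 to 709, 651 and 661 (-2.71 ± 0.16, limma adjusted p = 2.07e-07). CCNF, the substrate receptor of a ubiquitin ligase active in G2, was at 3176, 2759.8 and 2686 in DMSO and 964, 882 and 895 with lapatinib (-1.65 ± 0.14). CDC25B, a phosphatase that switches CDK1 on, had the smallest change of all 60 members and is named here after its values were seen. It read 8276, 7467 and 7509 in DMSO and 5119, 5234 and 4859 with lapatinib, groups that do not overlap, with a change of -0.61 ± 0.15 (limma adjusted p = 0.00808).

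The mitotic and centrosomal kinases, 4 genes, had a median change of -2.12. PLK1, which acts from mitotic entry to cytokinesis, fell from 2811, 3143 and 2436 to 543, 450.2 and 405 (-2.58 ± 0.20, limma adjusted p = 1.95e-06). AURKA, the kinase of spindle poles, fell from 5713, 6035 and 5684 to 1307, 1234 and 1232 (-2.21 ± 0.15). NEK2, a kinase for centrosome separation, fell from 1069, 1154 and 1272 to 287, 270.3 and 297 (-2.03 ± 0.15), and PLK4, which starts centriole duplication, changed by -1.98 ± 0.31. For PLK1 and AURKA every lapatinib library lay far below every DMSO library. In the spindle checkpoint group, 5 genes that hold back anaphase until chromosomes are attached, the median was -1.92. MAD2L1, which inhibits the anaphase activator CDC20, fell from 1134, 1351 and 1366 to 259.5, 331 and 264 (-2.17 ± 0.17). TTK, the kinase that recruits the checkpoint proteins, fell from 471, 651 and 615 to 156, 153 and 168 (-1.85 ± 0.23). BUB3, the adaptor of the BUB kinases, kept 47.2% of its DMSO mean, with 3404, 3514 and 3855 reads in DMSO and 1691, 1732 and 1658 with lapatinib. Its change of -1.08 ± 0.11 passed the test (limma adjusted p = 1.86e-05), and its groups were well separated. The call was lost with libraries scaled to their spike-in total (adjusted p = 0.0610 by limma), where the change was -1.62, and KIF18A and CDC25B lost theirs too (0.116 and 0.133).

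Among the 9 kinetochore and centromere genes, which hold microtubules to chromosomes, the median change was -2.58. The NDC80 complex, the main microtubule coupler, fell in all of its 4 subunits. SPC25 had 629, 679.8 and 805 reads in DMSO and 47.0, 60.7 and 54.4 with lapatinib, the largest change of all 60 members (-3.68 ± 0.22, limma adjusted p = 3.44e-07). SPC24, its direct partner, fell from 306, 259 and 252 to 30.4, 30.9 and 24.4 (-3.21 ± 0.21). NUF2, in the outer part of the complex, fell from 582, 601 and 652 to 101, 106 and 96.7 (-2.58 ± 0.19), and NDC80 itself changed by -2.76 ± 0.23. Both inner subunits thus changed more than the outer pair, a difference between genes that was not tested. CENPA, the histone variant of centromeres, changed by -2.37 ± 0.18 and the kinetochore motor CENPE by -2.17 ± 0.30. CENPI, an inner kinetochore protein named after its values were seen, was at 107, 151 and 145 in DMSO and at 5.88, 13.8 and 12.2 with lapatinib. Its change (-3.60 ± 0.46) has the largest standard error of the 60, and the reason for that was not tested.

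The chromosomal passenger complex, which corrects attachments at the centromere and later works at the midzone, is complete among the members, and its 4 genes had a median of -2.67. AURKB, its kinase, fell from 1397, 1105 and 1263 to 98.9, 145 and 98.5 (-3.47 ± 0.22, limma adjusted p = 4.43e-07), 9.09% of the DMSO mean. BIRC5 (survivin) fell from 7397, 5569.9 and 6723 to 800.0, 919.6 and 772 (-2.97 ± 0.24), and CDCA8 (borealin) from 1024, 1219 and 1019 to 229, 184 and 219.6 (-2.36 ± 0.23). INCENP, the scaffold, changed least within the complex, at -1.83 ± 0.23.

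The 6 genes of anaphase and mitotic exit had a median of -2.46. CDC20, the activator of the anaphase-promoting complex, fell from 5498, 4524 and 4702 to 1009.6, 1098 and 1000.4 (-2.24 ± 0.15, limma adjusted p = 6.76e-07). UBE2C, the ubiquitin-conjugating enzyme that starts chains for that complex, fell from 3484, 3363 and 3484 to 454, 454 and 513 (-2.86 ± 0.11) and had the smallest adjusted p of all members (4.19e-08 by limma). UBE2S, which lengthens those chains, fell from 3788, 2588 and 2810.2 to 561, 559.8 and 512 (-2.47 ± 0.24). Securin (PTTG1), separase (ESPL1) and the cohesin protector shugoshin (SGOL1) changed by -2.17, -2.45 and -2.81.

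For chromosome structure (6 genes) the median was -2.64. MKI67, which codes for the proliferation marker Ki-67 that coats mitotic chromosomes, fell from 8379, 7494 and 8266 to 1040.0, 1118 and 1074 (-2.90 ± 0.16, limma adjusted p = 1.45e-07). TOP2A, the topoisomerase that untangles sister chromatids, fell from 38072, 26662 and 34499.9 to 4666, 4979 and 4622 (-2.78 ± 0.25). NCAPG, a subunit of condensin I, fell from 973, 1091 and 1238 to 129, 151 and 132 (-2.99 ± 0.20), while SMC2, a core subunit shared by both condensins, changed by -1.67 ± 0.33. Among these 6 genes the lapatinib libraries were all below the DMSO libraries.

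The spindle group, 10 motors and microtubule proteins, had a median of -2.27. KIF2C, the microtubule-depolymerising kinesin whose window holds neither motif, fell from 3254, 2999.8 and 2985 to 451, 446 and 398 (-2.83 ± 0.15, limma adjusted p = 1.03e-07). KIF4A, a chromosome-bound kinesin, fell from 2293, 2776 and 2419.5 to 605, 526 and 586 (-2.12 ± 0.15), and TPX2, which activates AURKA on the spindle, from 2471, 3231 and 2953 to 607, 623 and 560.2 (-2.26 ± 0.18). KIF18A, the kinesin that limits chromosome oscillation, had the largest adjusted p (0.0167 by limma; -1.25 ± 0.34), and without DMSO library 2, DMSO library 3 or lapatinib library 2 it rose to 0.0536, 0.0552 and 0.0754. The cytokinesis group, 6 genes, had a median of -2.06. PRC1, the bundler of midzone microtubules, fell from 4601, 5736 and 4556 to 1062, 965 and 1014 (-2.28 ± 0.24). The centralspindlin subunits RACGAP1 and KIF23, which position the cleavage furrow, changed by -1.91 ± 0.22 and -2.00 ± 0.28. RACGAP1 had 1826, 2628 and 2252 reads in DMSO and 646, 509.8 and 617 with lapatinib, and KIF23 had 1017, 1547 and 1433 and then 317, 299 and 369.7. In both cases the groups were separate.

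**Figure D2:**
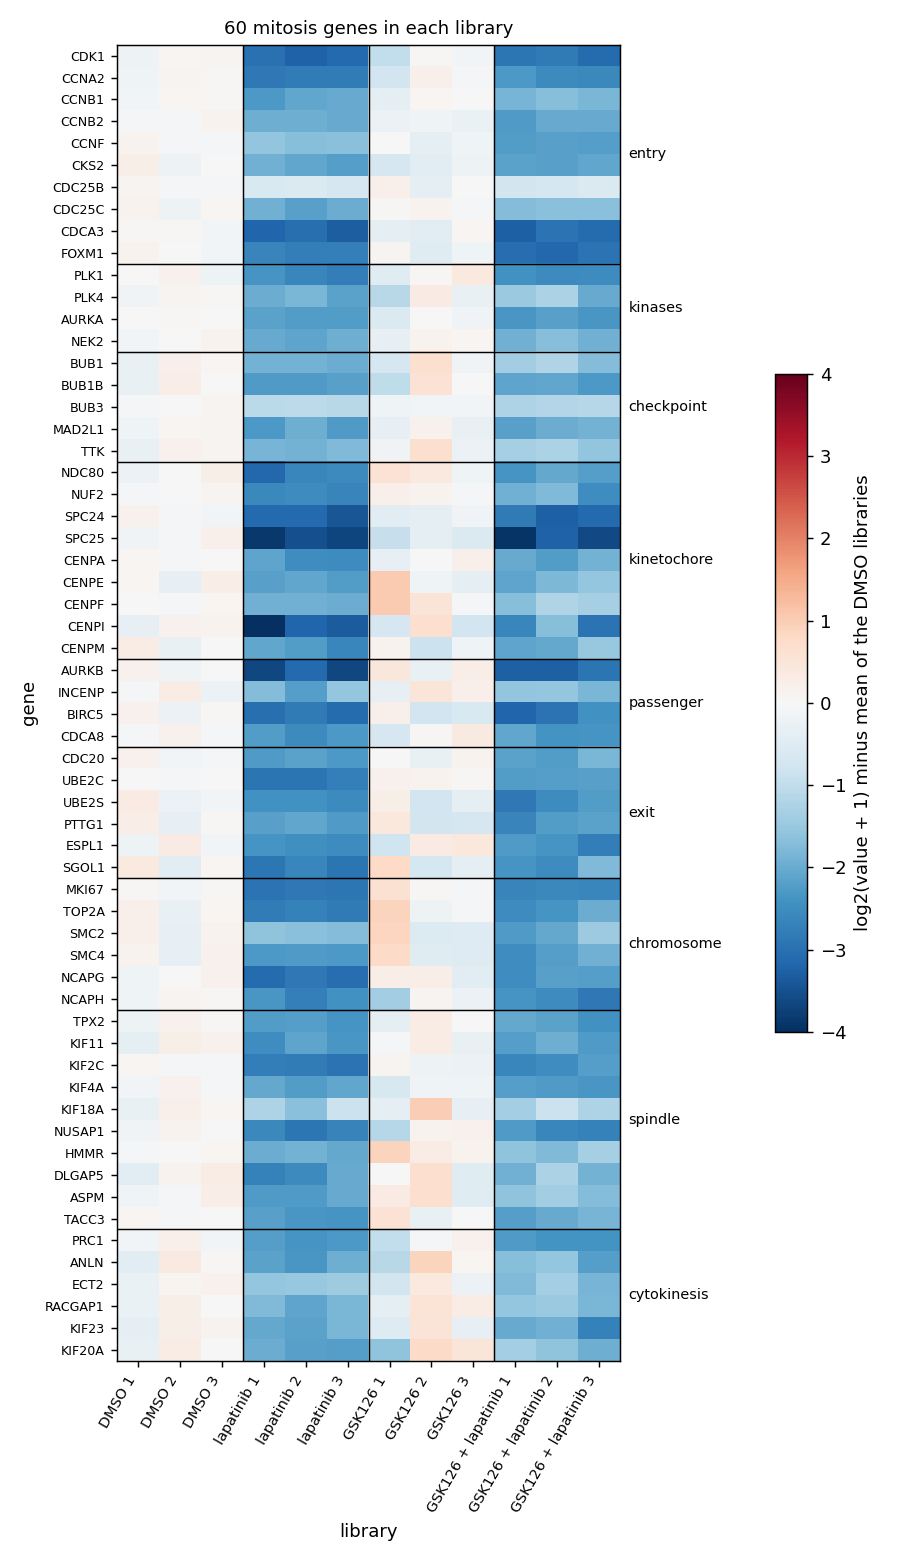
Level of each of the 60 mitosis genes (rows, grouped by role) in each of the 12 libraries (columns), as log2(value + 1) minus the mean of the DMSO libraries, in blue where lower and red where higher. All 60 rows are blue in the 3 lapatinib and 3 combination libraries, while the GSK126 libraries differ from each other.

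The median change was close to the same with and without either motif. The 36 members with a homology region had a median log2 change of -2.26 with lapatinib and the 15 without one -2.28. The 37 with a CCAAT box had a median of -2.28 and the 14 without one -2.26. The 6 members with neither, CDC25B, CDC25C, CENPE, CENPI, KIF2C and TACC3, ran from -3.60 to -0.61 with a median of -2.22. No test was made of these differences.

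Lapatinib given on top of GSK126 lowered the same 60 genes. Against the GSK126 group all 60 were called lower in the combination group, where 9.71% of tested genes were called lower and 8.48% higher. The libraries did not overlap for 59 of them (14% of tested genes lay wholly lower and 15.6% wholly higher), the exception being KIF20A, a cytokinesis kinesin with 377, 1936 and 1580.5 reads with GSK126 and 442, 371 and 297 with both drugs. Its GSK126 library 1 lay below combination library 1. The median change was -2.04, and the combination mean was at a median of 23.2% of the GSK126 mean, from 9.998% for AURKB to 64.8% for CDC25B. Reads on the members made up 0.188%, 0.190% and 0.183% of the gene reads in the combination libraries and 0.731%, 0.764% and 0.666% in the GSK126 libraries.

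AURKB, SPC25, FOXM1 and CDCA3 had the largest changes here. AURKB was at 1713, 1014 and 1506 with GSK126 and at 128, 130.2 and 165 with both drugs, a log2 change of -3.29 ± 0.22 (limma adjusted p = 1.06e-06). SPC25 went from 367, 543 and 466 to 44.8, 73.6 and 55.9 (-2.97 ± 0.22). FOXM1 went from 4797, 3115 and 3899.9 to 534, 502 and 563 (-2.86 ± 0.16), and CDCA3 from 782, 742 and 1062 to 105, 130.2 and 118 (-2.85 ± 0.17). For each of these 4 genes every combination library was far below the lowest GSK126 library. MKI67 went from 12236, 8349 and 7587 to 1283, 1344 and 1307 (-2.81 ± 0.16), CDK1 from 2413, 4883 and 4418 to 637, 676 and 559 (-2.58 ± 0.22), and PLK1 from 1994, 2901 and 3636 to 517, 479.7 and 484 (-2.48 ± 0.20). The combination libraries lay close together for these genes, while the GSK126 libraries were spread out. UBE2C went from 3854, 3786 and 3555 to 726, 744 and 761 (-2.32 ± 0.11, limma adjusted p = 2.78e-07). CENPI, with -3.60 the next after SPC25 under lapatinib alone, changed by -2.15 ± 0.46 here. CDC25B and BUB3 again had the smallest changes, at -0.61 ± 0.15 and -1.05 ± 0.11. Across the 60 members the changes with lapatinib alone and after GSK126, which share no library, had a Pearson r of 0.863 and a Spearman rho of 0.856. The genes are not independent replicates, and all values share the deposited scaling.

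By role, the medians after GSK126 were -1.95 for entry, -1.93 for the kinases, -1.48 for the checkpoint, -2.13 for the kinetochore, -2.32 for the passenger complex, -2.17 for exit, -2.22 for chromosome structure, -2.05 for the spindle and -1.78 for cytokinesis. The checkpoint and cytokinesis groups thus stood closest to 0, as they did with lapatinib alone. The calls of KIF20A (-1.52 ± 0.45, limma adjusted p = 0.0353), KIF18A, PLK4 and CDC25B were the least certain, and each was lost when 1 or more libraries were left out. Without combination library 1, which stands apart, 57 members were called lower, and KIF20A, KIF18A and CDC25B had adjusted p of 0.0667, 0.0949 and 0.0509 (limma).

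**Figure D3:**
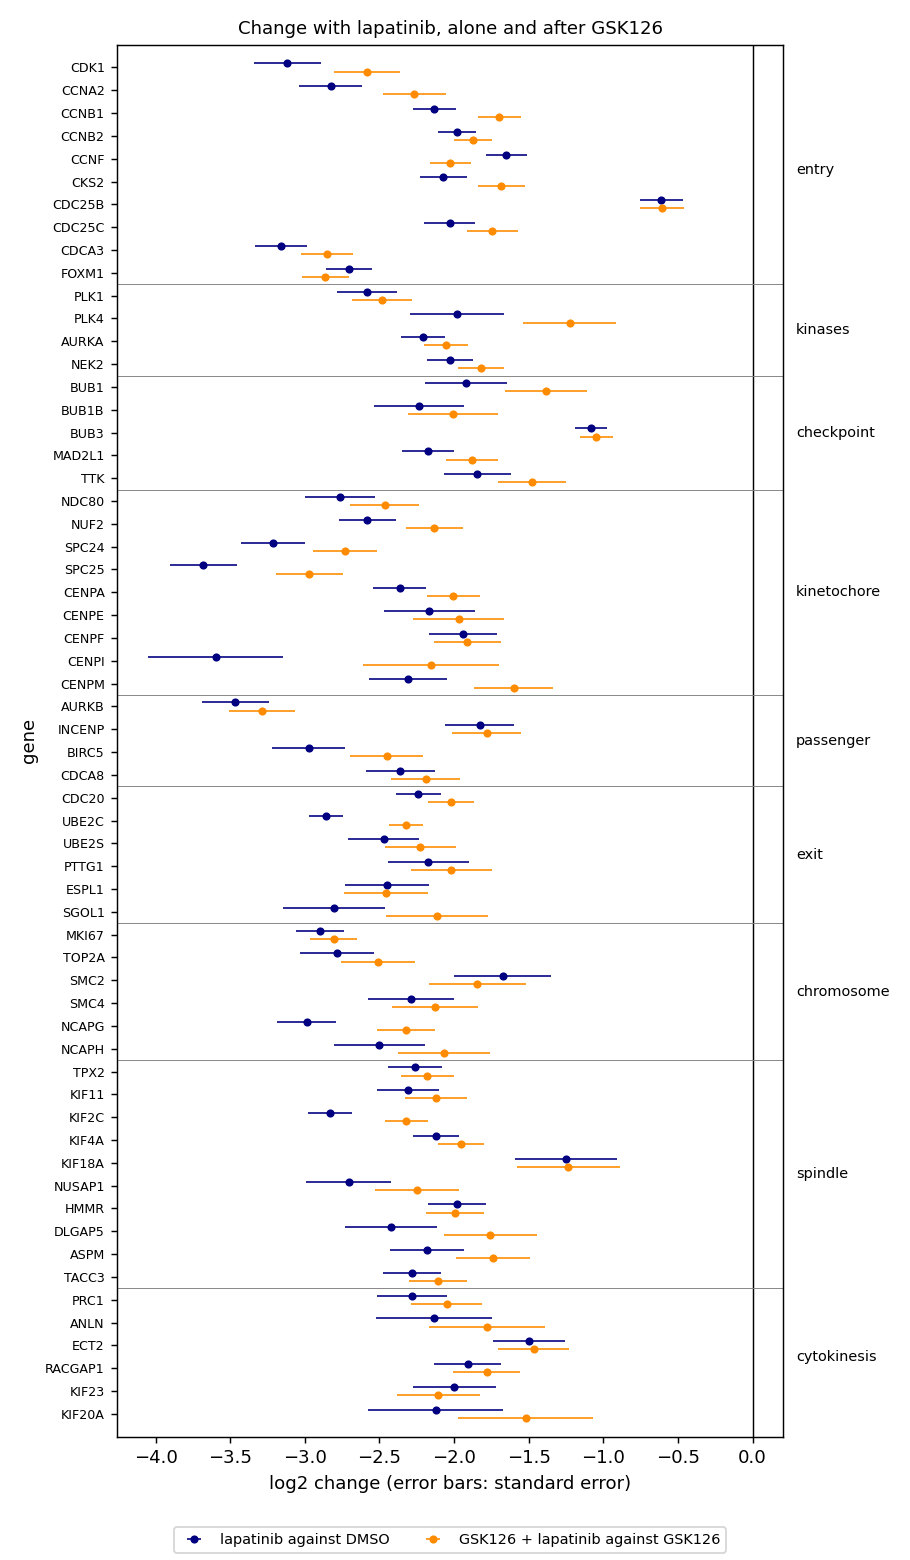
Log2 change ± SE (horizontal axis) of each mitosis gene (vertical axis, grouped by role) for lapatinib against DMSO in blue and for the combination against GSK126 in orange. Every point is below 0, from -3.68 to -0.61, and the orange point is the one nearer to 0 for 54 of 60 genes.

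Against untreated cells, both drugs together left the members at a median of 21.9% of the DMSO mean. All 60 were called lower with no overlap between libraries, against 20.1% of tested genes called lower, 22% called higher 26.8% with every library lower and 30.3% with every library higher, and the median log2 change was -2.18. SPC25 changed most (-3.60 ± 0.22) and CDC25B least (-0.67). Without DMSO library 2, DMSO library 3 or combination library 1 the count was 59, the gene lost being KIF18A each time. With combination libraries 2 and 3 alone, which share the spike-in composition of the DMSO libraries, the median was -2.12 and all 60 remained below 0. Combination library 1 against GSK126 libraries 2 and 3, the other pairing within a composition, gave a median of -2.08 with 60 below 0.

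GSK126 without lapatinib changed no mitosis gene past the threshold in either direction. The limma test called 0 of 60 lower and 0 higher, against 3.93% of tested genes called lower and 10.7% called higher. At an unadjusted p under 0.05 there were 4 members, and the share of all tested genes at that threshold was not counted. The edgeR test called 0 members, against 3.74% of tested genes lower and 10.4% higher. DESeq2 called 2 lower, CKS2 and SPC25, against 5.64% of tested genes lower and 12.8% higher. The median log2 change was -0.09, with 42 members below 0 and 18 above, and the median of all tested genes was -0.04. Every GSK126 library lay below every DMSO library for 6 members and above for 2, against 9.59% and 14.4% of tested genes. The 95% intervals of the 60 changes lay between -1.24 and 0.99, with widths that differed from gene to gene.

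The lowest change was that of SPC25 and the highest that of CENPF, with NCAPH (-0.51) between them in size. SPC25 had 367, 543 and 466 reads with GSK126 against 629, 679.8 and 805 in DMSO, with no overlap and a log2 difference of -0.63 ± 0.22 that missed the threshold (limma adjusted p = 0.0853). CENPF, an outer kinetochore protein named after its values were seen, had 13279, 9115 and 6103 against 6271, 6151 and 6799.6 (0.50 ± 0.23, limma adjusted p = 0.184), and its groups overlapped. CKS2, a small subunit of CDK complexes named for the smallest adjusted p of this comparison (0.0819 by limma), had 1683, 2018 and 2325 against 3149, 2346 and 2678, again without overlap. MKI67 differed by 0.19 (95% interval -0.15 to 0.54), CDK1 by -0.35 (-0.83 to 0.13), CCNB1 by -0.10 (-0.41 to 0.21) and FOXM1 by -0.18 (-0.52 to 0.15). TOP2A differed by 0.22 (-0.32 to 0.76), CDC20 by -0.05 (-0.37 to 0.28), AURKB by 0.14 (-0.34 to 0.62) and PLK1 by -0.01 (-0.45 to 0.42). None of these intervals excludes 0.

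The GSK126 libraries differed from each other more than those of any other group. The median SD of the members on the log2 scale was 0.463 with GSK126, 0.183 in DMSO, 0.113 with lapatinib and 0.191 with both drugs, and over all tested genes the same medians were 0.432, 0.243, 0.116 and 0.203. GSK126 library 1 was above both of its fellows for 21 members and below both for 29. Against their mean it was higher by over 1 on the log2 scale for SMC2 (1.39), SGOL1 (1.35), CENPE (1.34), SMC4 (1.27), PTTG1 (1.12) and TOP2A (1.00). It was lower by over 1 for KIF20A (-2.21), ANLN (-1.59), NCAPH (-1.34), NUSAP1 (-1.30), BUB1B (-1.30), ESPL1 (-1.20), PLK4 (-1.13) and PRC1 (-1.05). The library was thus high for some members and low for others, condensin subunits on both sides (SMC2 and SMC4 against NCAPH). These genes were listed after their values were seen. The same library had its own spike-in composition and 4.04% of its gene reads on MALAT1, a nuclear RNA that took 1.05% to 2.67% in the others except for combination library 3 with 4.29%, and the part of either in this pattern was not tested. Without GSK126 library 1, BIRC5 and PTTG1 were called lower and KIF20A higher against DMSO. Of all tested genes 9.45% were then called lower and 13.5% higher. Without GSK126 library 3, CKS2 was called lower and CENPF higher, against 5.51% and 9.6% of tested genes. No member was called in both cases.

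In the main fit, which shares 1 spread per gene across all 4 groups, few mitosis genes were called between the combination and lapatinib. Against lapatinib, the combination group had 2 members called higher and 1 called lower, 57 not called, against 11.5% of tested genes called higher and 6.35% called lower. That count depended on the fit. With only the compared groups fitted it was 14 higher and 2 lower, against 18.7% and 17.9% of tested genes. With array weights it was 28 higher and 3 lower, against 29.9% and 30.2%. The part of the spread of the GSK126 libraries in this was not tested. UBE2C was at 454, 454 and 513 with lapatinib and at 726, 744 and 761 with both drugs, a log2 change of 0.65 ± 0.11 (limma adjusted p = 0.00131). Every combination library lay above every lapatinib library, and all 6 stayed far below the lowest DMSO library at 3363. NCAPG was at 129, 151 and 132 against 195, 243 and 236 (0.70 ± 0.20, limma adjusted p = 0.0245). CCNF went the other way, from 964, 882 and 895 to 602, 641 and 624 (-0.55 ± 0.14, limma adjusted p = 0.0118). The groups did not overlap for any of the 3 genes. Under spike-in scaling all 3 calls were lost, with changes of 0.19 for UBE2C, 0.24 for NCAPG and -1.02 for CCNF, so that for CCNF the change was larger and less certain. NCAPG lost its call without lapatinib library 1 or 3 or combination library 2 or 3 (adjusted p from 0.0781 to 0.0989 by limma), and CCNF lost its call without lapatinib library 1 (0.0625).

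Most other members were slightly higher with both drugs than with lapatinib, without passing the main test. The median change was 0.18, with 44 members above 0 and 16 below, while the median of all tested genes was -0.03. Every combination library was above every lapatinib library for 20 members and below for 3, against 23.7% and 23.6% of tested genes. All 9 kinetochore genes were above 0, with NUF2 at 101, 106 and 96.7 with lapatinib against 161, 180.4 and 109 with both drugs (0.53 ± 0.19, limma adjusted p = 0.0775). CENPI, named after its values were seen, had the highest value (1.19 ± 0.46, limma adjusted p = 0.0965), from 5.88, 13.8 and 12.2 to 21.2, 40.4 and 16.4. MKI67 was at 1040.0, 1118 and 1074 against 1283, 1344 and 1307, without overlap (0.28 ± 0.16, limma adjusted p = 0.276). CCNB1 was at 679.6, 796 and 829 against 932, 1023 and 949 (0.34 ± 0.14, limma adjusted p = 0.139), and KIF2C at 451, 446 and 398 against 504, 548 and 668 (0.40 ± 0.15, limma adjusted p = 0.0798). FOXM1 was lower, at 709, 651 and 661 against 534, 502 and 563 (-0.34 ± 0.16, limma adjusted p = 0.171). These differences depend on the scaling. With libraries scaled to their spike-in total the median of all tested genes in this comparison moved by -0.46, and the members' median became -0.29 with 48 below 0, although relative to all tested genes it stayed at 0.20. Within the common spike-in composition (combination libraries 2 and 3), 43 members were above 0 and the median was 0.23.

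**Figure D4:**
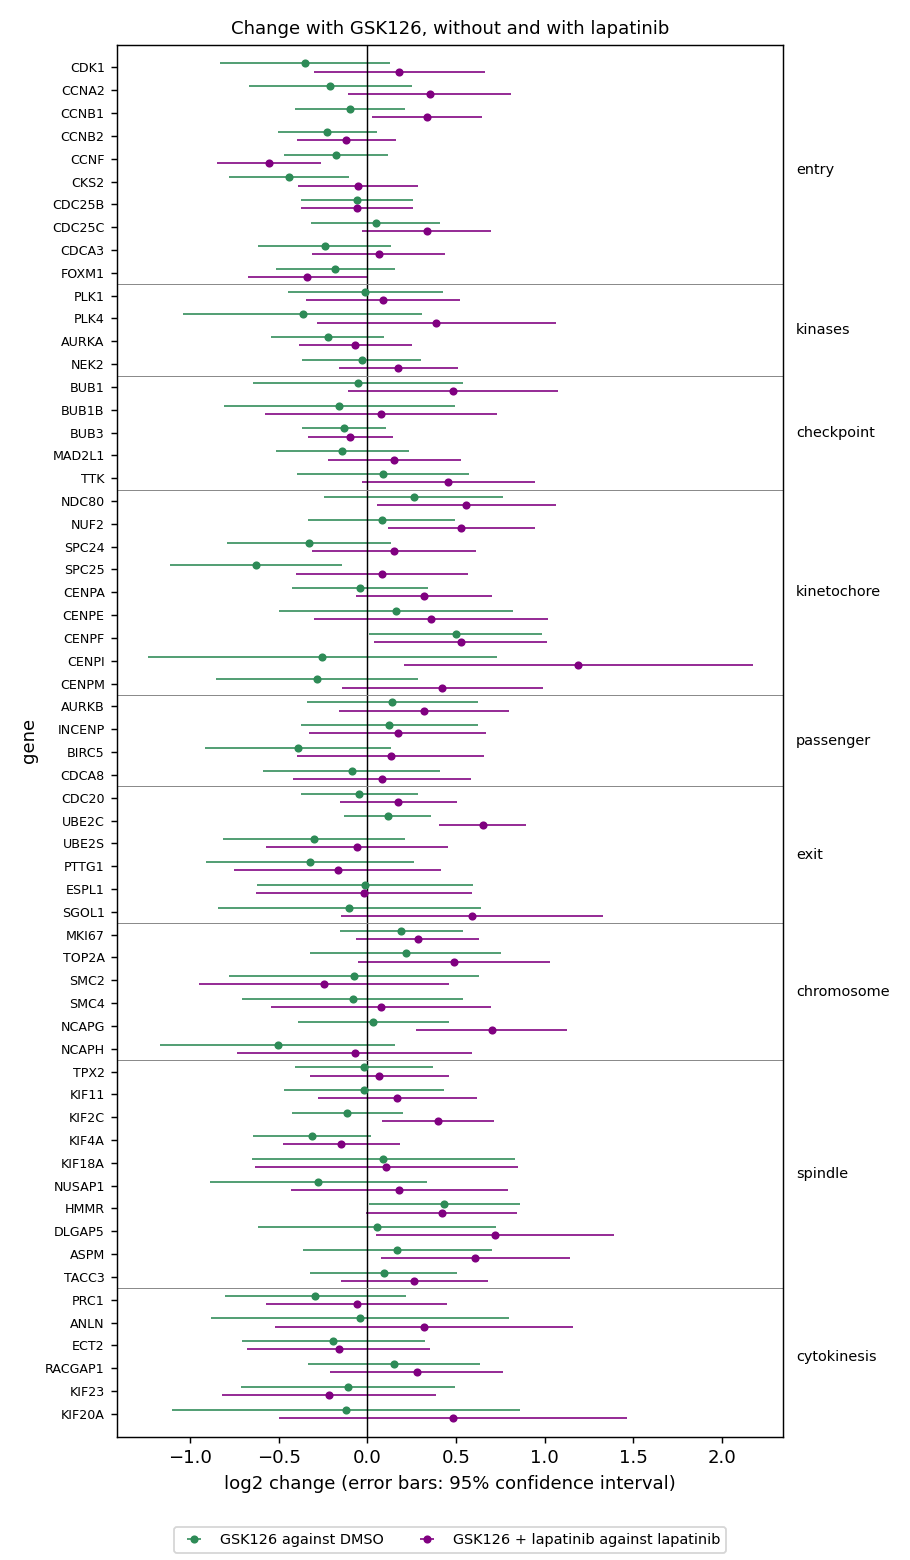
Log2 change with its 95% confidence interval (horizontal axis) of each mitosis gene (vertical axis, grouped by role) for GSK126 against DMSO in green and for the combination against lapatinib in purple. Most intervals cross 0, and UBE2C, NCAPG and CCNF are the 3 genes called in the purple comparison by the main test.

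The interaction asks whether lapatinib changed a gene by a different amount in cells that had received GSK126. No member passed (limma, 0 higher and 0 lower), against 0.0141% of tested genes called higher and 0.00705% called lower. At an unadjusted p under 0.05 there were 5 members, and the share of all tested genes at that threshold was not counted. The edgeR test called 0 members, against 0.0141% of tested genes higher and 0.00705% lower. DESeq2 called 1 higher, UBE2C, against 0.451% of tested genes higher and 0.339% lower. UBE2C also had the smallest adjusted p among the members (0.54 ± 0.16, adjusted p = 0.458 by limma). The interaction was above 0 for 54 of 60 members, with a median of 0.24 against 0.02 for all tested genes, and its highest value was that of CENPI at 1.44 (95% interval 0.05 to 2.84). Under spike-in scaling 46 members were below 0, while the members' median relative to all tested genes was 0.22.

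Other genes of mitosis were read from lists chosen with earlier results of these data known. Of 72 further kinetochore, spindle and mitotic regulator genes, 63 were called lower with lapatinib and 0 higher, with a median of -1.94. Of all tested genes 14.3% were called lower and 13.7% higher. The smallest adjusted p were those of KIFC1, a minus-end kinesin (-2.87), CDCA5 (sororin, -3.21), the kinetochore subunit SKA1 (-3.46) and the CDK1 inhibitor kinase PKMYT1 (-2.84). The 9 not called were CENPB, CENPC, CENPT, MAD1L1, MIS12, NSL1, PMF1 and ZW10, parts of the centromere, kinetochore or checkpoint, and WEE1, the kinase that holds CDK1 back. Of the same 72 genes 59 were called lower by lapatinib after GSK126 (9.71% of tested genes) and 65 by both drugs against DMSO (20.1%). GSK126 alone called 2 lower, PLK2 and CDC25A, against 3.93% of tested genes. On top of lapatinib it called 3 lower and 3 higher, against 6.35% and 11.5% of tested genes.

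Protein complexes that the members act on or with were read against the 14.3% of tested genes called lower with lapatinib and the 13.7% called higher. Of 16 genes of the anaphase-promoting complex and its regulators, 3 were called lower with lapatinib and 0 higher, a share near that of all tested genes. FBXO5 (EMI1), its inhibitor, changed by -1.93 ± 0.29, and the subunits ANAPC15 and ANAPC11 by -1.18 and -0.75, while the list's median was -0.19. Of 12 cohesin genes 4 were called lower, the acetyltransferase ESCO2 (-2.74), SMC3 (-1.25), SMC1A (-0.86) and RAD21 (-0.77), and the loader subunit MAU2 was called higher (0.65). Of 10 genes of the gamma-tubulin ring and spindle pole, TUBG1 (-1.21), TUBGCP4 (-0.77), NEDD1 (-0.77) and PCNT (-0.66) were called lower, and NUMA1 (1.01) and TUBGCP6 (0.63) higher. NUMA1, which tethers microtubules at spindle poles, was at 5527, 7118 and 5574 in DMSO and at 12392, 12112 and 11912 with lapatinib, so it rose where the spindle genes among the members fell. With lapatinib after GSK126 the counts were 2 lower of the 16, 3 lower of the 12, and 4 lower and 1 higher of the 10. Of all tested genes 9.71% were called lower and 8.48% higher there. With both drugs against DMSO the counts were 4 lower, then 4 lower and 1 higher, then 6 lower and 1 higher. The shares of all tested genes were 20.1% lower and 22% higher. GSK126 alone called 1 lower of the 16, 0 of the 12 and 1 lower of the 10, against 3.93% of tested genes lower and 10.7% higher. On top of lapatinib it called 2 genes lower of the 10 and 0 in the other lists, against 6.35% lower and 11.5% higher.

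Of 10 genes of the DREAM and MYB complexes, which act on the members' promoters, 5 were called lower with lapatinib and 1 higher, with a median of -0.69, against 14.3% and 13.7% of tested genes. MYBL2, the activating subunit, was at 13505, 11255 and 11155 in DMSO and at 845, 833 and 683 with lapatinib, a larger log2 change (-3.93 ± 0.17, limma adjusted p = 6.55e-08) than that of any of the 60 members. RBL1 (p107), LIN9 and LIN52 fell by 1.63, 1.47 and 0.69 on the log2 scale. RBL2 (p130), the pocket protein of the repressive complex in resting cells, was at 431, 622 and 666 in DMSO and at 1186, 1148 and 1369 with lapatinib, a rise of 1.13 ± 0.26 (limma adjusted p = 0.00666). After GSK126, MYBL2 again fell with lapatinib (-3.63 ± 0.17), and RBL2 was 0.79 ± 0.26 higher without passing the test (limma adjusted p = 0.0524). The counts were 3 lower of 10 there (9.71% of tested genes), and 5 lower and 1 higher for both drugs against DMSO (20.1% and 22%). They were 0 for GSK126 alone (3.93% lower and 10.7% higher) and on top of lapatinib (6.35% and 11.5%).

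DNA replication genes, which are transcribed earlier in the cycle, were read in the same way. With lapatinib all 41 were called lower (median -1.89), and after GSK126 39 were (median -1.61), against 14.3% and 9.71% of tested genes. With GSK126 alone 8 of the 41 were called lower and 0 higher, against 3.93% and 10.7% of tested genes. Their median change with GSK126 alone was -0.36. Their share of gene reads was 0.371%, 0.457% and 0.433% there, against 0.471%, 0.525% and 0.505% in DMSO. The 3 GSK126 libraries had replication medians of -0.45, -0.32 and -0.37 against the DMSO mean, and mitosis medians of -0.28, 0.06 and -0.13. In each library the replication genes were thus the lower of the lists, and the difference between the lists was not tested. With GSK126 on top of lapatinib 1 replication gene was called lower and 1 higher, against 6.35% and 11.5% of tested genes. The interaction called 0 genes in any of the 6 further lists, against 0.00705% of tested genes called lower and 0.0141% called higher.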

How the data were processed

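RNA from 12 SKBR3 samples (4 groups of 3 libraries) was purified, and polyadenylated RNA was sequenced in single 75 bp reads, per the labels' protocols. The deposited values are a signal, counts that the authors divided by DESeq2 size factors after alignment with STAR to hg19, per the submitters' processing notes. Versions, the read counter, the annotation and strand handling are not given in the sources used here, so overlapping and antisense genes could share reads. All deposited values (100.0%) came back as whole reads within 0.01 of an integer, which gave 17693103 to 30349466 reads on 22170 genes beside 86 spike-ins.

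The main test was limma 3.58.1 (R 4.3.3) with a trended prior on log2(value + 1), for genes with at least 10 in at least 3 libraries (14179 genes, all 60 members among them). One model of 4 group means over 12 libraries left 8 residual degrees of freedom. P-values were adjusted by Benjamini and Hochberg over all genes tested, at 0.05. Fold changes are on the log2(value + 1) scale, which understates those of low genes. The code was tested on simulated data in which each gene had the same spread in every group. Unequal spread between groups was not covered. Alternatives included other scalings, filters, pseudocounts and weights, edgeR 4.0.16 and DESeq2 1.42.0 on the recovered reads, and each library left out. Values are not per length, so levels of different genes are not compared.

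The members and all lists were chosen with earlier results of these data known. Values per library are given for 8 fixed genes, up to 3 members per role with the smallest adjusted p for lapatinib, and up to 5 called members per direction in the other comparisons. Only some members named for other reasons are marked as such. Those without a mark include KIF20A and KIF18A, named for what their values showed. PLK4, INCENP, SMC2, CENPA, CENPE, NDC80, PTTG1, ESPL1 and SGOL1 were also named outside this rule without a mark. From each further list up to 4 called genes per direction are named.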

Additional observations from a re-analysis of the deposited data

How the results depend on the processing

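All 60 members stayed below 0 for lapatinib against DMSO, the combination against GSK126 and the combination against DMSO under each scaling tried. For the 30 members followed gene by gene through the alternatives, no change reversed its sign where either fit called it. Calls were lost all the same. Spike-in scaling lost BUB3, KIF18A and CDC25B against DMSO with lapatinib, and total-count scaling lost KIF18A there, KIF20A, PLK4 and KIF18A for the combination against GSK126, and KIF20A and KIF18A for the combination against DMSO. Leaving out 1 library at a time gave 59 to 60, 57 to 60 and 59 to 60 members called lower in these comparisons. The number called lower against GSK126 fell to 55 when only the groups compared were fitted. For these comparisons of lapatinib with its absence, the shares of all tested genes under the alternatives are not given here. For GSK126 against DMSO, 4 members were called lower with array weights (12.1% of tested genes) and 2 with DESeq2 (5.64%). Leaving out 1 library gave 0 to 2 lower (1.66% to 9.45% of tested genes) and 0 to 1 higher (8.48% to 13.5%). For the combination against lapatinib, the number called lower was 0 with spike-in scaling (0.553% of tested genes) and 3 with array weights (30.2%). It was 2 with only the groups compared (17.9%) and 0 to 1 with a library left out (3.22% to 4.67%). The number called higher there was 4 with total-count scaling (11.8% of tested genes) and 0 with spike-in scaling (2.25%). A term for spike-in composition gave 5 (12.1%), array weights 28 (29.9%) and DESeq2 4 (13.5%). The fit of only the groups compared gave 14 (18.7%), and leaving out a library 1 to 2 (8.8% to 9.69%). For the interaction, array weights called 1 lower and 20 higher (12.3% and 10.8% of tested genes) and DESeq2 called 1 higher (0.451%). The cause of these differences was not tested. Over 21 alternatives the adjusted p against lapatinib ran from 2.3e-08 to 0.829 for UBE2C (called in 20), from 2.48e-06 to 0.796 for NCAPG (16) and from 1.78e-06 to 0.377 for CCNF (19).

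With the replicate number as a block, 60 members were called lower in each comparison with lapatinib against its absence. The share of all tested genes in those comparisons is not given here. For GSK126 against DMSO 0 members were called, against 2.96% of tested genes lower and 9.8% higher. For the combination against lapatinib 1 was called lower (5.28% of tested genes) and 3 higher (10.9%). Correlations between same-numbered libraries ran from -0.334 to 0.352 over 18 pairs, and those between other libraries from -0.483 to 0.440. Of all libraries 0 were closest to their own number in every group, so no consistent pairing by number was seen. This criterion asks for a match in every group at once and cannot exclude pairing.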
